A study of Homo sapiens with 8 samples.

Results

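DDIT4, DDIT4L, the sestrin genes SESN1, SESN2 and SESN3, the tuberous sclerosis complex genes TSC1 and TSC2 and the GTPase gene RHEB are 8 regulators of mTORC1 that were selected by symbol from the 22458 genes with a named probe set. All 8 had 1 probe set each, and no filter on low values was applied. The set was drawn up with the difference between the groups already known, so the values of that difference below are a description and carry no test of these genes. Earlier values of DDIT4 and SESN2 in particular were known.

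The cells were Caco-2 clone TC7, a single clone of an epithelial line from a human colon tumour, grown in high-glucose medium with serum. CRTC1 cells (4 arrays) received an expression plasmid for CRTC1, a coactivator of the transcription factor CREB, and empty vector cells (4 arrays) received pBS, each as 200 ng overnight at subconfluence. The labels list no other treatment of either group and do not give the share of cells that took up plasmid. In RNA from whole cultures, more responding cells and more RNA per responding cell cannot be told apart. The labels do not state separate cultures, so the spread between arrays may be technical. CRTC1 itself averaged 11.87 ± 0.457 in CRTC1 cells and 5.90 ± 0.407 in empty vector cells on the log2 scale (SD, n = 4 each), and it was the 1 gene of 22458 (0.00445%) past an adjusted p of 0.05 in limma.

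The epithelial markers VIL1, EPCAM, CDH1 and FABP1 had mean levels of 9.54, 10.28, 9.88 and 10.46 over the 8 arrays. SI, KRT20 and CDX1, which mark differentiated enterocytes or intestinal identity, lay at 2.90, 3.47 and 3.97, under the median of all gene means, 4.16. CDX2 and ALPI, markers of the same kinds, lay above it at 7.59 and 4.70, so these markers did not share a level. Of the 12 epithelial markers 9 lay at or above that median, against 2 of 7 fibroblast, 1 of 5 leukocyte and 0 of 5 endothelial markers. Probe sets differ in brightness at equal RNA, and the deposited values carry no detection calls, so the median is only a guide to dim signal. The summed marker levels of CRTC1 and empty vector cells overlapped in each of the 4 marker lists.

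mTORC1 is the protein kinase complex that drives protein synthesis and growth when amino acids, growth factors and energy are at hand. The TSC1 and TSC2 proteins form a GTPase-activating complex that turns off RHEB, the GTPase that activates mTORC1 on the lysosome. The DDIT4 protein, also called REDD1, is a short-lived stress product that acts through the TSC complex, and its relative DDIT4L, also called REDD2, inhibits mTORC1 as well. Sestrins bind the GATOR2 complex and so limit the amino acid signal to mTORC1, and SESN2 serves as a leucine sensor. Hypoxia, ATF4 and glucocorticoids are known inducers of DDIT4, ATF4 of SESN2, p53 of SESN1 and SESN2, and FOXO factors of SESN3.

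The promoter windows of DDIT4 and SESN2 are shown because these genes had the largest differences of the 8, and the upstream window of TSC2 because it held the most kinds of motif. Each runs from 250 bases before to 50 bases after a RefSeq transcript start, 5′ to 3′ on the gene's strand, in build GRCh38.p14. Capitals mark matches on either strand to the CRE core TGACG, the full cAMP response element (CRE) TGACGTCA, the ATF4 composite element TGATGNAA or the hypoxia element core ACGTG. The windows are chr10:72273674-72273973 (plus strand), chr1:28259268-28259567 (plus strand) and chr16:2047735-2048034 (plus strand).
DDIT4: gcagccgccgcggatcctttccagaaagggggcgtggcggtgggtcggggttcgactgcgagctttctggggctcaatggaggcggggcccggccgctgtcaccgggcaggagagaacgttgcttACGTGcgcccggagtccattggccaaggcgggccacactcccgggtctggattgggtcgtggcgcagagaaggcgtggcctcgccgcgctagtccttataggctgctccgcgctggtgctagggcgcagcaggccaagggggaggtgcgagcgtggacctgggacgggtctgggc
SESN2: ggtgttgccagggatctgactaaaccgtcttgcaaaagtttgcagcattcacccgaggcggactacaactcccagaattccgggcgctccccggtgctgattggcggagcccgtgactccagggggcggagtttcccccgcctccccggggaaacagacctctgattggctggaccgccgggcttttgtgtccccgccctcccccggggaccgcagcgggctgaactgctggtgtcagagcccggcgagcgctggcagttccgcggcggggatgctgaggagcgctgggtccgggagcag
TSC2: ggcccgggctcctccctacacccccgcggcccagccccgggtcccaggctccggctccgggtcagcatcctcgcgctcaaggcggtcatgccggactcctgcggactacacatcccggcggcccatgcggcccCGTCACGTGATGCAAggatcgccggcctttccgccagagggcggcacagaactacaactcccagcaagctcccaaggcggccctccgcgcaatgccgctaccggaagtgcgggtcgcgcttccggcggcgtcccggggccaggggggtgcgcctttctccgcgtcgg

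The DDIT4 window had 1 match, a hypoxia element core from -125 to -121, and the SESN2 window had none. In the TSC2 window a CRE core from -117 to -113, a hypoxia core on each strand between -114 and -109 and a composite element from -110 to -103 overlapped in a single run of capitals. SESN1 had 3 windows and TSC2 had 2, which gave 11 windows for the 8 genes. The CRE core occurred in 4 of the 11, in TSC1, RHEB and 1 window each of SESN1 and TSC2, against 24.6% of all 35116 windows. The full CRE occurred in 0 of the 11 and in 1.85% of all windows. The composite element was in 1 of 11, that of TSC2, against 3.62%, and the hypoxia core in 3 of 11, those of DDIT4, TSC2 and RHEB, against 21.4%. DDIT4L and SESN3 had no match in their windows. A full CRE also counts as a core on each strand, and a match describes letters only.

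DDIT4 lay at 6.24, 6.05, 5.95 and 5.66 on the 4 CRTC1 arrays, against 5.48, 5.37, 5.14 and 4.76 on the 4 empty vector arrays (log2 expression, replicates 1 to 4). Every CRTC1 array was above every empty vector array, with CRTC1 replicate 4 and empty vector replicate 1 nearest to each other. The means were 5.98 ± 0.240 in CRTC1 cells and 5.19 ± 0.316 in empty vector cells (SD, n = 4 each). The log2 difference was 0.79 with a standard error of 0.17, a ratio of 1.73 with a 95% interval of 1.32 to 2.26. Of the 8 genes DDIT4 was the 1 whose groups did not overlap, where 1.68% of all genes lay without overlap on the higher side and 2.06% on the lower.

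DDIT4L, the paralog, showed no such separation. Its levels were 3.21, 3.64, 3.85 and 3.82 with CRTC1 and 3.62, 3.54, 3.94 and 3.76 with empty vector. The groups overlapped throughout, and CRTC1 replicate 1, the array with the highest DDIT4, had the lowest DDIT4L. Means were 3.63 ± 0.293 in CRTC1 cells and 3.72 ± 0.173 in empty vector cells (SD, n = 4 each), a log2 difference of -0.09 with a 95% interval of -0.43 to 0.26. Without CRTC1 replicate 1 the difference was 0.05. Its mean level of 3.67 lay under the median of all genes.

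**Figure D1:**
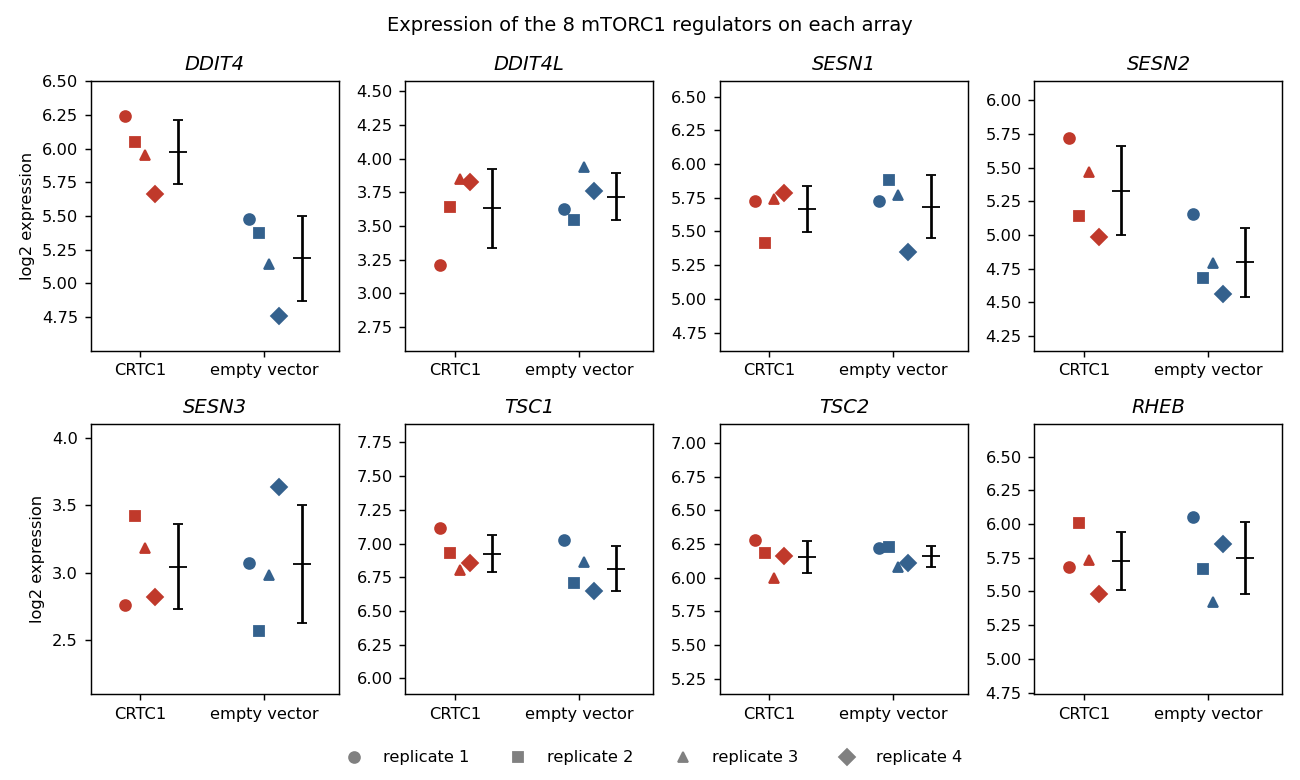
Log2 expression of each of the 8 genes on each array, with CRTC1 arrays on the left and empty vector arrays on the right of each panel. Symbols mark the replicate number, the black bars mark the mean and SD of 4 arrays, and every panel spans the same 2 log2 units. DDIT4 is the gene whose CRTC1 arrays (5.66 to 6.24) all lie above its empty vector arrays (4.76 to 5.48).

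Among the sestrin genes SESN2 had the largest difference between the groups. It lay at 5.72, 5.14, 5.47 and 4.98 on the CRTC1 arrays, against 5.16, 4.68, 4.80 and 4.56 on the empty vector arrays. The groups overlapped, since CRTC1 replicates 2 and 4 were under empty vector replicate 1, while the other 2 CRTC1 arrays were above all empty vector arrays. The means were 5.33 ± 0.330 in CRTC1 cells and 4.80 ± 0.256 in empty vector cells (SD, n = 4 each). The log2 difference was 0.53 with a standard error of 0.18, a ratio of 1.44 with a 95% interval of 1.09 to 1.91. It was 0.40 without CRTC1 replicate 1 and 0.65 without empty vector replicate 1.

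SESN1, the sestrin best known as a p53 target, lay at 5.73, 5.42, 5.74 and 5.79 with CRTC1 and at 5.73, 5.88, 5.77 and 5.35 with empty vector. One array in each group, CRTC1 replicate 2 and empty vector replicate 4, lay under the other 3. The log2 difference was -0.02 with a 95% interval of -0.32 to 0.28, which spans ratios of 0.804 to 1.22. SESN3 had the widest interval of the 8. Its levels were 2.76, 3.42, 3.18 and 2.82 with CRTC1 and 3.07, 2.57, 2.98 and 3.63 with empty vector, so both extremes were empty vector arrays. The log2 difference of -0.02 had a 95% interval of -0.53 to 0.49, and values from -0.31 to 0.25 were obtained with arrays left out. Its mean level of 3.05 lay under the median of all genes, as did that of DDIT4L.

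TSC1, the stabilising subunit of the TSC complex, lay at 7.12, 6.93, 6.80 and 6.85 with CRTC1 and at 7.03, 6.71, 6.86 and 6.65 with empty vector. The log2 difference was 0.11 with a 95% interval of -0.13 to 0.36, and the groups overlapped. TSC2, the catalytic subunit, lay at 6.28, 6.18, 6.00 and 6.16 with CRTC1 and at 6.22, 6.23, 6.08 and 6.11 with empty vector. Its range over all 8 arrays, 0.28, was the narrowest of the set, where the median gene had 0.53. The log2 difference of -0.01 had a 95% interval of -0.20 to 0.19, ratios of 0.869 to 1.14.

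RHEB, the activator that the TSC complex restrains, lay at 5.68, 6.01, 5.73 and 5.48 with CRTC1 and at 6.05, 5.66, 5.43 and 5.85 with empty vector. The extremes in both directions were empty vector arrays. The log2 difference was -0.02 with a 95% interval of -0.37 to 0.32. RefSeq lists 3 RHEB pseudogenes, and signal from such copies on the probe set cannot be separated here, so the level of RHEB itself is uncertain.

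**Figure D2:**
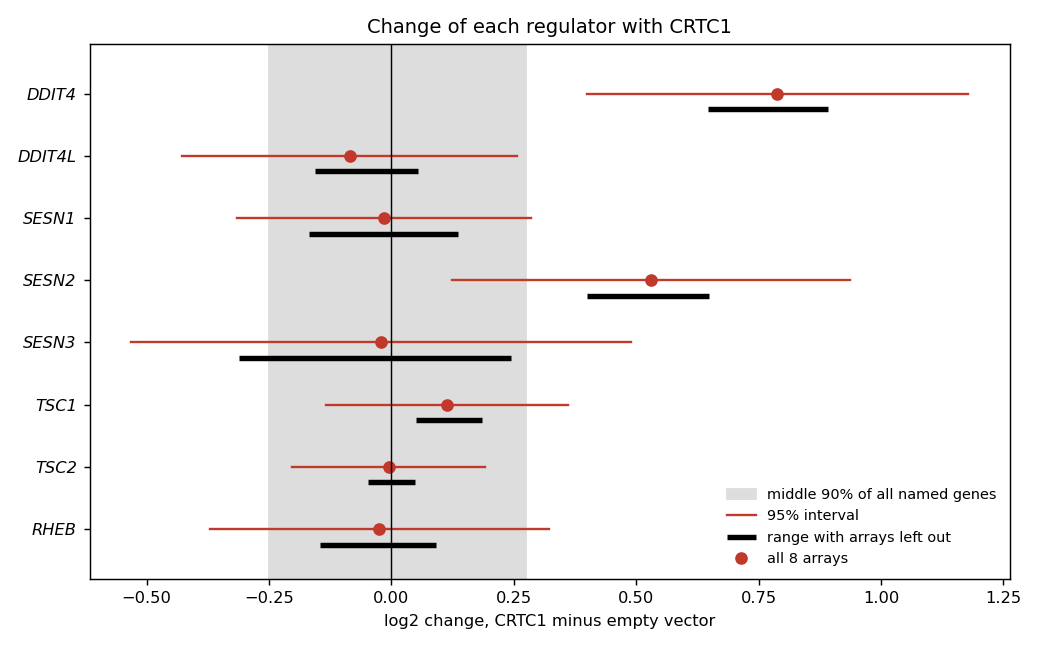
Log2 difference between CRTC1 and empty vector cells for each of the 8 genes, from 4 arrays per group. Points and red lines give the value and its 95% interval, black bars give the range over 12 fits with 1 array or 1 replicate number left out, and the grey band holds the middle 90% of all named genes (-0.25 to 0.27). DDIT4 (0.79) and SESN2 (0.53) lie outside the band, and the other 6 lie inside it.

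In limma over all 22458 genes 0 of the 8 passed an adjusted p of 0.05, against 0.00445% of all genes, with a lowest adjusted p of 0.837, which DDIT4 and SESN2 shared. At an unadjusted p under 0.05 there were 2 of the 8, DDIT4 and SESN2, against 5.94% of all genes (3.20% higher and 2.73% lower). Because the genes were taken up with these differences in view, nothing is read from that count, which was 1 without replicate 3 of both groups. The median log2 difference of the 8 was -0.01, and that of all genes was -0.01. The differences of DDIT4 and SESN2 both lay above 0.45, the percentile 99 of all genes, while those of the other 6 were under 0.12 in size.

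The order of the arrays within a group was shared between DDIT4 and CRTC1, but in CRTC1 cells alone. In CRTC1 cells the plasmid gene lay at 12.52, 11.78, 11.70 and 11.46 on replicates 1 to 4, and DDIT4 took the same order. In empty vector cells CRTC1 lay at 5.48, 5.63, 6.30 and 6.19, and its highest array, replicate 3, ranked 3 of 4 for DDIT4. With 4 arrays this is a description with no test. For DDIT4 the order of the replicate numbers was the same in both groups, and so it was for SESN2. The CRTC1 array exceeded the empty vector array of the same number by 0.68 to 0.90 for DDIT4 and by 0.42 to 0.67 for SESN2. For RHEB these differences ran from -0.37 to 0.34 and for SESN3 from -0.82 to 0.85. The labels do not say what arrays of the same number share.

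The genes with a profile most like that of DDIT4 were sought by the root mean square difference over the 8 arrays, each gene centred on its own mean. Genes with LOC, LINC, MIR, SNOR or OR-family symbols were left out of this search. The nearest were MXD1, a MAX-binding repressor that opposes MYC (0.136), HERPUD1, a component of ER-associated degradation (0.157), HBP1, an HMG-box transcriptional repressor (0.170), and DNAJB9, an ER co-chaperone (0.179). MXD1 lay at 7.34, 6.90, 6.63 and 6.39 with CRTC1 and at 6.49, 6.33, 6.14 and 5.63 with empty vector. The log2 differences of the 4 genes were 0.67, 0.76, 0.47 and 0.67, and in each the groups overlapped. SESN2 stood at 0.218 from DDIT4, and 19 other genes were nearer to DDIT4 than SESN2 was. That count was made over all named genes, with no symbols left out.

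With the same symbols left out, the genes most like SESN2 were CLK4, a kinase of splicing factors (0.102), and TRBV6-4, a T cell receptor segment (0.111). CTH, an enzyme of cysteine synthesis (0.122), and LYSMD3 (0.123) came next. CLK4 lay at 7.72, 7.35, 7.54 and 6.94 with CRTC1 and at 7.22, 6.90, 6.91 and 6.82 with empty vector. CTH had a log2 difference of 0.37, and TRBV6-4 was dim, between 2.12 and 3.09. Each missed the threshold (adjusted p = 0.837 for MXD1, HERPUD1, HBP1, DNAJB9, CLK4, TRBV6-4 and LYSMD3 and 0.838 for CTH, limma).

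**Figure D3:**
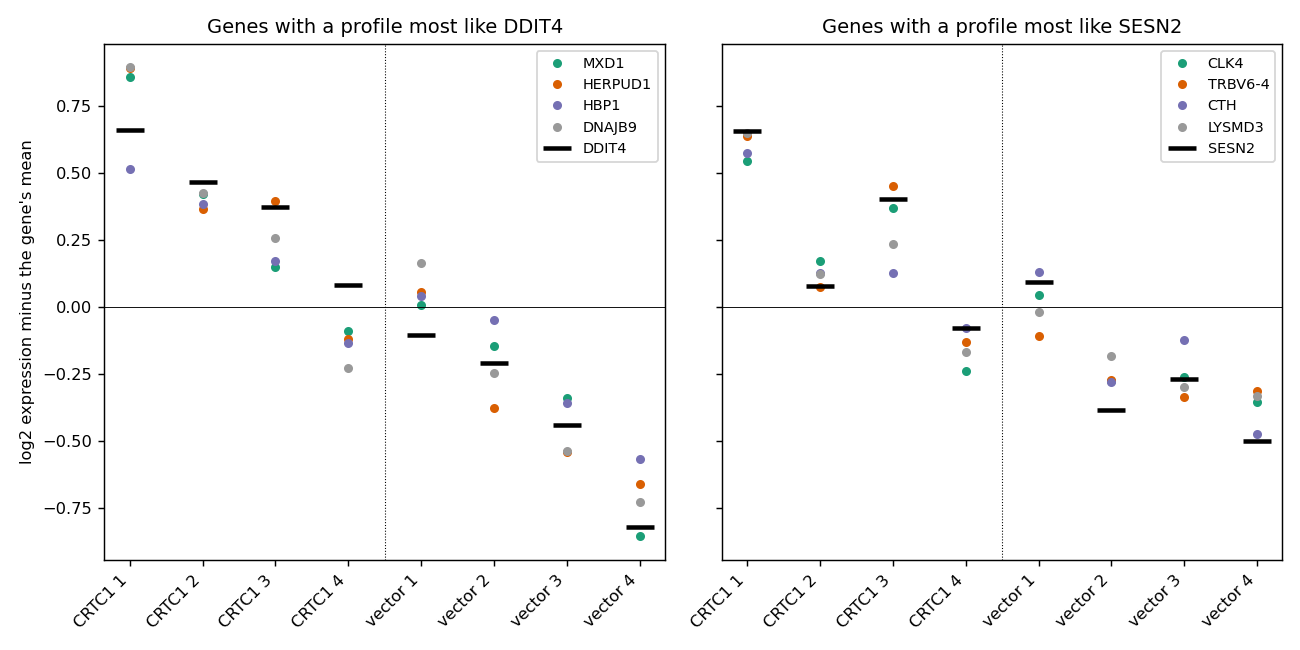
Log2 expression minus the gene's own mean on each array, for DDIT4 (left) and SESN2 (right) as black bars and for the 4 genes with the smallest root mean square difference from each as points. LOC, LINC, MIR, SNOR and OR-family symbols were left out of the search. CRTC1 arrays stand left of the dotted line and empty vector arrays right of it. CRTC1 replicate 1 is the highest array for every gene shown.

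The rest of the mTORC1 pathway was described with 7 lists that held 77 genes, of which 69 were measured. None of the 69 passed over all genes in limma (lowest adjusted p = 0.837). The unadjusted p was under 0.05 for 3 genes on the higher side (4.35%) and 1 on the lower side (1.45%), against 3.20% and 2.73% of all genes. Their median log2 difference was 0.01.

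SAMTOR, a sensor of S-adenosylmethionine that restrains mTORC1 through GATOR1, had the largest difference of the 69. It lay at 6.27, 5.85, 6.03 and 5.94 with CRTC1 and at 5.80, 5.39, 5.59 and 5.28 with empty vector. The groups did not overlap, where 1.68% of all genes lay without overlap on the higher side. The log2 difference was 0.50 with a standard error of 0.13 (adjusted p = 0.837, limma). SLC38A9, the lysosomal arginine sensor, lay at 5.91 to 6.15 with CRTC1 and at 5.82 to 5.88 with empty vector, a difference of 0.18. These were the 2 genes at an unadjusted p under 0.05 among 14 measured Rag, Ragulator, folliculin and sensor genes, whose median difference was 0.02. Of all genes 3.20% lay higher at that p, and nothing is read from the count.

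TBC1D7, a further subunit of the TSC complex, lay at 6.37 to 6.656 with CRTC1 and at 6.663 to 6.80 with empty vector. Its log2 difference was -0.19, with a narrow margin between the groups (adjusted p = 0.838, limma). RHEBL1, a relative of RHEB, had 0.01. Among the 5 subunits of mTORC1 the kinase gene MTOR had 0.10 and AKT1S1, an inhibitory subunit, had -0.12, and the median was close to 0.

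The GATOR1, GATOR2 and KICSTOR genes, which relay the amino acid signal that sestrins act on, had a median of -0.04 over 11 measured members. DEPDC5 of GATOR1 had a log2 difference of -0.20 and WDR24 of GATOR2 had -0.13. AMPK subunits and upstream kinases had a median of 0.04 over 11 members, with STRADA, a partner of the kinase that activates AMPK, at -0.11 and PRKAB2, a regulatory subunit, at 0.07. In these lists 0 genes passed in limma and 0 lay at an unadjusted p under 0.05, where 5.94% of all genes lay.

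Upstream of the TSC complex, AKT2, a kinase that inactivates TSC2, lay at 6.96 to 7.28 with CRTC1 and at 7.19 to 7.51 with empty vector. Its log2 difference was -0.29 (adjusted p = 0.837, limma). It was the 1 gene at an unadjusted p under 0.05 of 11 measured insulin, PI3K and AKT genes, where 2.73% of all genes lay lower. The receptor gene IGF1R of that list had 0.18. Downstream, EIF4B, an initiation factor that S6 kinase phosphorylates, lay at 7.64 to 8.13 with CRTC1 and at 7.50 to 7.85 with empty vector, a difference of 0.29. RPS6KB1, which encodes an S6 kinase, had 0.16, and the median of the 15 substrates and outputs was -0.02.

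**Figure D4:**
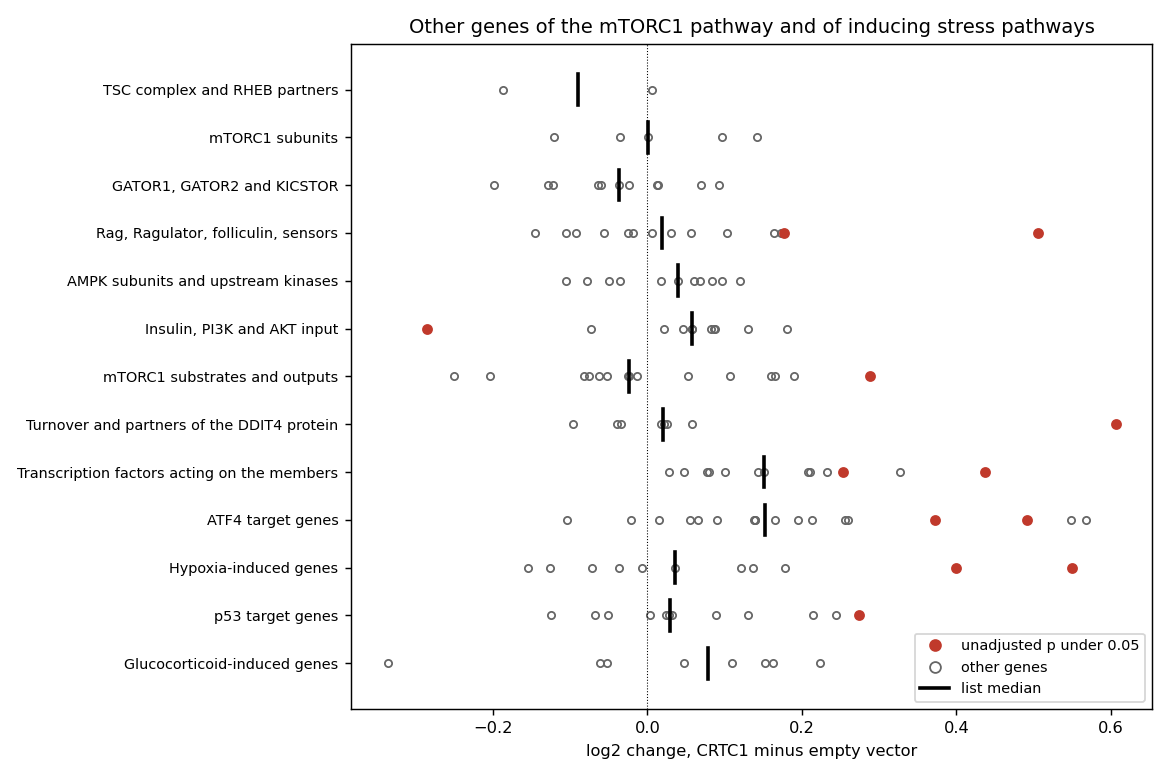
Log2 difference between CRTC1 and empty vector cells for each measured gene of the 13 pathway and stress lists, 1 list per line. Filled points have an unadjusted p under 0.05 in limma, open points do not, and black bars give the list median. The medians of the 7 mTORC1 lists at the top run from -0.09 to 0.06, and those of the transcription factor and ATF4 target lists are 0.15.

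Factors that bear on DDIT4 and the sestrin genes were described with 6 further lists. TXNIP, which binds the DDIT4 protein and slows its breakdown, lay at 9.21, 9.65, 9.43 and 9.67 with CRTC1 and at 8.61, 9.23, 8.81 and 8.88 with empty vector. Its log2 difference was 0.61 with a standard error of 0.15 (adjusted p = 0.837, limma). CRTC1 replicate 1, the highest array for DDIT4, was the lowest CRTC1 array for TXNIP. GSK3B, a kinase that marks DDIT4 for breakdown, had -0.10.

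All 13 measured transcription factor genes known to act on DDIT4 or sestrin genes had a positive difference. Their median was 0.15, where that of all genes was -0.01. The count was 12 without CRTC1 replicate 4, without empty vector replicate 1 or without both arrays numbered 1. DDIT3, the stress factor CHOP, lay at 6.10, 5.77, 5.61 and 5.43 with CRTC1 and at 5.59, 5.36, 5.10 and 5.11 with empty vector. The log2 difference was 0.44 for DDIT3 and 0.25 for XBP1, a factor of the unfolded protein response. These were the 2 of 13 at an unadjusted p under 0.05, where 3.20% of all genes lay higher. Summed over the list, levels ran from 93.6 to 96.6 with CRTC1 and from 91.5 to 93.0 with empty vector. Of 18 measured ATF4 targets, DDIT4 and SESN2 left out, 16 had a positive difference, and the median was 0.15. The cystine transporter gene SLC7A11 had 0.49 and ASNS, which makes asparagine, 0.37, and the list's summed levels overlapped between CRTC1 (132.9 to 140.3) and empty vector (129.6 to 136.5). With arrays left out the median ran from 0.11 to 0.22 for the factors and from 0.10 to 0.23 for the ATF4 targets. Both lists were written with earlier results of these data known, so nothing is read from these directions or sums.

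Hypoxia-induced genes had a median of 0.04 over 11 members, with 6 positive and 5 negative. KDM3A, a histone demethylase gene, lay at 6.80 to 6.97 with CRTC1 and at 6.46 to 6.57 with empty vector. EGLN3, an oxygen-sensing hydroxylase gene, had a difference of 0.55, but its groups overlapped. It lay at 4.30 on CRTC1 replicate 1, at 2.97 to 3.55 on the other CRTC1 arrays and at 2.84 to 3.22 with empty vector. p53 targets had a median of 0.03 over 12 members, with MDM2, the p53 ubiquitin ligase, at 0.27 and TNFRSF10B, a death receptor, at 0.21. Glucocorticoid-induced genes had a median of 0.08 over 8 members, with TSC22D3, the leucine zipper protein GILZ, at -0.34 and the transcription factor gene KLF9 at 0.16. The mean levels of EGLN3, TSC22D3 and KLF9, 3.30, 2.60 and 3.00, lay under the median of all genes.

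Over all 13 lists 0 of 139 measured genes passed in limma. The unadjusted p was under 0.05 for 11 genes on the higher side (7.91%) and for 1 on the lower side, AKT2 (0.719%), against 3.20% and 2.73% of all genes. The count of 11 was 4 without CRTC1 replicate 1 and 4 without empty vector replicate 4. It was 6 without replicate 2 and 7 without replicate 3 of both groups, and on the lower side 3 genes were counted with CRTC1 replicate 1 left out, 2 with CRTC1 replicate 3 or 4 or both arrays numbered 3 left out, and 0 with empty vector replicate 1 or 4 left out. Some of these genes were known from the same arrays to be higher before they were listed, so the count is no independent evidence of a direction. Among the 29 measured marker genes 2 lay higher at an unadjusted p under 0.05, the fibroblast marker PDGFRB (0.42) and the endothelial marker CLDN5 (0.33). The mean levels of PDGFRB and CLDN5, 2.74 and 3.93, lay under the median of all genes. The 7 fibroblast markers summed to 23.0 to 23.7 with CRTC1 and 22.5 to 23.3 with empty vector, and the 5 endothelial markers to 15.1 to 15.6 with CRTC1 and 14.5 to 15.9 with empty vector. LGALS4 and ITGAM, the epithelial and leukocyte markers with the smallest p, had -0.23 and -0.08. Their part in the differences of DDIT4 and SESN2 was not tested.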

How the data were processed

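Total RNA was labelled with biotin for Affymetrix whole-transcript arrays, per the labels' protocols. The deposited log2 expression values hold 1 value per probe set and array. Per the submitters' processing notes Partek was used, with no version or role. How arrays were corrected, summarised and normalized is not stated in the labels, and the log2 scale was read from the values. The array medians lay between 4.11 and 4.15, so the values cannot show a change common to most genes. Of 23786 probe sets 22458 had 1 gene symbol in the platform annotation, updated through Entrez identifiers with RefSeq (GRCh38.p14), and 1328 were unnamed here and not tested.

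limma 3.58.1 in R 4.3.3 was fitted to all 8 arrays with 1 term for CRTC1 and no block, with Benjamini-Hochberg adjustment over 22458 genes. The number of arrays limits the precision. The step was tested on simulated data. The 8 genes and the 17 lists (13 pathway and stress lists, 4 marker lists, 183 genes, 168 measured) were chosen with earlier results of these data known. The rule for named genes took the 8 genes, CRTC1, the 2 genes with the smallest p from each pathway or stress list, 1 from each marker list, and the 4 genes most like DDIT4 and SESN2. VIL1, EPCAM, CDH1, FABP1, SI, KRT20, CDX1, CDX2 and ALPI were named after their values were seen. RefSeq promoter windows matched all 8 genes. Alternatives covered a replicate block, normalization, centring, dim genes, variance models, array weights, all probe sets and arrays left out.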

Additional observations from a re-analysis of the deposited data

Results flagged for a closer look

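Of 94 groups of 4 arrays, from 47 named genes, 6 had 1 array far from the other 3 by Dixon's test, where chance gives about 5. Among the 8 mTORC1 regulators there was 1 in 16 groups. On CRTC1 replicate 2, SESN1 was at 5.42, while the rest of its group held 5.73 to 5.79. The same array had KDM3A at 6.80, where its group otherwise held 6.96 to 6.97, and PDGFRB at 2.85, where it held 2.97 to 2.99. In empty vector replicate 3 WDR24 was at 5.21 and its group otherwise at 5.40 to 5.43. In empty vector replicate 2 AKT2 was at 7.19 and its group otherwise at 7.47 to 7.51. In empty vector replicate 4 GSK3B was at 8.34 and its group otherwise at 8.16 to 8.17.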

How the results depend on the processing

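Over 19 alternatives the log2 difference of DDIT4 ran from 0.65 to 0.89 (adjusted p from 0.411 to 0.970, limma) and that of SESN2 from 0.40 to 0.65 (adjusted p from 0.539 to 0.970). With arrays left out it ran from -0.16 to 0.05 for DDIT4L, -0.17 to 0.14 for SESN1, -0.31 to 0.25 for SESN3, 0.05 to 0.19 for TSC1, -0.05 to 0.05 for TSC2 and -0.15 to 0.09 for RHEB. All 150 values of the 8 genes moved by less than 1 SD between arrays. Leaving out 1 array per group cannot move a value further than that. The replicate block, the variance models, the fit without dim genes and that of all probe sets leave the log2 difference unchanged. This count is therefore no test of stability. DDIT4L and SESN3 had no value at or above the median level. CRTC1 stayed past the threshold in all 19, from 5.61 to 6.20. Genes past the threshold numbered 2 with a trend and robust moderation. Genes higher at an unadjusted p under 0.05 numbered 369, and lower ones 460, when dim genes, under the median level, were left untested. In the fit of all 22458 genes they numbered 719 and 614. Fewer genes were tested without the dim ones, so the fall from 719 to 369 does not by itself show a smaller share. Of the 8 regulators 1 to 2 lay at an unadjusted p under 0.05 with arrays left out, and the 1 came without replicate 3. List genes lower at an unadjusted p, 1 in the limma fit reported, numbered 3 with the replicate block or array weights and 2 with quantile normalization, median centring, genes at or above the median level or trend and robust moderation. With arrays left out the lower ones numbered 0 to 3 and the higher ones 4 to 15. RHEBL1 turned to -0.0165 with array weights and ran from -0.20 to 0.19 with arrays left out, and ITGAM ran from -0.12 to 0.0108, the last without replicate 3. In the last 150 bases of the promoter windows the CRE core was in 2 of the 11, against 15.6% of all windows. The composite element was in 0 of the 11, against 1.83%, and the hypoxia core in 1, against 12.3%. The causes were not tested.

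Deviations of arrays with the same replicate number correlated at 0.251, 0.0385, 0.0639 and 0.117 across genes, and 2 of 4 pairs were over 0.1. Because the labels state no pairing, the numbers were not used as pairs in the fit reported. The labels do not say whether such arrays share a culture or a day. These deviations were taken from each gene's group mean, and each array was compared only with the arrays of the other group. In that comparison all 8 arrays correlated best with the array of their own number. This is a hint from the data and not from the design. With the replicate block the standard error was 0.08 for DDIT4 and 0.08 for SESN2, with the log2 differences at 0.79 and 0.53 (adjusted p = 0.411 and 0.539, limma), and the count of genes past the threshold was 1. The table held no detection calls, so what the dim probe sets of DDIT4L and SESN3 could show is unknown.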
